A study of Caenorhabditis elegans with 2 samples.

Results

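The sites described here are the candidate binding sites of HRDE-1 whose summits lie in the piRNA gene clusters of chromosome IV of Caenorhabditis elegans. A site counted as a member when its summit in the pooled ce11 list lay on chromosome IV between 4500000 and 7000000 (the left cluster) or between 13500000 and 17200000 (the right cluster). This gave 1633 of the 30000 pooled sites, 758 in the left and 875 in the right cluster, and the remaining 3887 pooled sites of chromosome IV served for comparison. HRDE-1, also called WAGO-9, was precipitated from strain YL557, a transgenic line that stably expresses WAGO-9 with GFP and FLAG at its C-terminus. Chromatin of whole hermaphrodite young adults, collected 48 hours after growth was started from starved L1 larvae, was sonicated and, by the sample description, precipitated through GFP (the antibody field names hrde-1). All samples formed 1 group of 2 biological replicates that share strain, tag, stage and treatment, so no condition could be compared. The whole animal was used, so germ line and body cannot be told apart, and what the transgene's promoter drives is not given in the sources used here. Replicate 1 had 24269 candidate sites, 1247 of them in the clusters, and replicate 2 had 30000, with 1658 in the clusters. A shorter list by the authors holds the 1341 sites that passed their irreproducible discovery rate (IDR) threshold, a measure of how well replicates rank the same sites. They are called IDR peaks here. The authors label the pooled list as peaks and background, made as input for IDR, so its sites include background. The pooled list and that of replicate 2 have the same length, 30000. Densities below count listed sites, and how many of them are bound is not known.

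The IDR peaks were the pooled sites of highest score: their lowest score was 74.0, and 0 other pooled sites reached it. The score is the value the authors' caller gave each site against a control. Its scale is not stated, so it is used to rank sites within 1 list. Read depth is unknown. Sites of 1 list are not replicates of a condition. Regions can be paired within a replicate, but an exact two-sided sign-flip test over 2 replicates cannot give a p under 0.5, so no test was run. The main shares and densities are given with exact 95% intervals, which cover counting error only, and with their values in each replicate's list.

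Piwi-interacting RNAs (piRNAs) of worms are short germline RNAs that begin with U and are carried by the Piwi protein PRG-1. Most are transcribed from a great many minute genes packed into broad clusters on chromosome IV, each gene with its own upstream motif, and the motif is recognised by a complex that includes SNPC-4 and PRDE-1. When a piRNA meets a target transcript, RNA-dependent RNA polymerases make secondary small RNAs against it. HRDE-1 takes up such secondary small RNAs in germ cell nuclei and silences the genes that they match. The piRNA genes themselves are thus a source of the pathway, and HRDE-1 acts near its end.

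The annotation places 14204 piRNA genes in the clusters, 2816 in the left and 11388 in the right. By comparison, 510 lie elsewhere on chromosome IV and 649 on other chromosomes. In the DNA strand of the gene, 96.2% of those in the clusters begin with T, and 34.8% have the motif core CTGTTTCA within the 60 bases before them, starting at a median of 46 bp before the gene. The following 6 piRNA genes lie next to the strongest sites that had a piRNA gene within 100 bp and neither another kind of gene start nor a protein-coding 3′ end within 500 bp. They show the sequence of piRNA genes beside sites and are placed on the gene, not on the summit. Only the summit beside 21ur-6052 lies within the stretch shown. Each line gives 60 bases before the gene and the 21 bases of the piRNA, 5′ to 3′ on the gene's strand in build WBcel235 (ce11). Capitals mark the motif core, where it is present upstream on that strand, and the piRNA itself.
21ur-11892: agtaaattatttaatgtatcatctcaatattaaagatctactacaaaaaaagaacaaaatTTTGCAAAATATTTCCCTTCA
21ur-6686: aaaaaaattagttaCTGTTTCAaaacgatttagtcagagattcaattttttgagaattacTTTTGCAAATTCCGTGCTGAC
21ur-3187: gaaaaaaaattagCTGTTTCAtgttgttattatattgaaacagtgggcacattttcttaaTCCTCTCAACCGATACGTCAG
21ur-6052: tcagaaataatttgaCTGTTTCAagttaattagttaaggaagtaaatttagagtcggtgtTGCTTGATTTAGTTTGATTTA
21ur-3646: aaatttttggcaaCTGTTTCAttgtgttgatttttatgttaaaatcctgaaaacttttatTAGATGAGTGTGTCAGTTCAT
21ur-8213: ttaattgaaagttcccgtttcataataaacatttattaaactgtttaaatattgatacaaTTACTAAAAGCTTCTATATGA

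The stretches are at chrIV:6115058-6115138 (plus strand), chrIV:6060194-6060274 (plus), chrIV:5607749-5607829 (minus), chrIV:14231586-14231666 (minus), chrIV:15712759-15712839 (minus) and chrIV:15705749-15705829 (minus). The motif core stood 45 to 47 bp before the piRNA in 21ur-6686, 21ur-3187, 21ur-6052 and 21ur-3646, and its letters were not in the window of 21ur-11892 or 21ur-8213. The stretch of 21ur-3187 also holds the core on the opposite strand. All are rich in A and T, with a GC content of 21.0% to 33.3%. 21ur-11892 and 21ur-6052 lie between genes. 21ur-6686 lies in an intron of kcc-2, 21ur-3646 and 21ur-8213 in an intron of Y105C5A.15, and 21ur-3187 lies antisense in an exon of a fkh-7 transcript for which the annotation gives no coding sequence.

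The sites beside these genes were the strongest of their kind, and none was an IDR peak. All cluster sites together had a median score of 22.3 and an upper quartile of 30.9. In the left cluster the site 78 bp from 21ur-11892 scored 34.3 in the pooled list, 12.9 in the list of replicate 1 and 12.9 in that of replicate 2. The site 99 bp from 21ur-6686 scored 31.3, with 8.46 and 22.7 in the replicates, and the one 65 bp from 21ur-3187 scored 30.3, with 12.7 in replicate 1 and no site of replicate 2 within 100 bp. In the right cluster the site 12 bp from 21ur-6052 scored 39.4, with 32.7 in replicate 2 and no site of replicate 1 within 100 bp. All of these scores are far under the 74.0 at which the IDR list begins, and each list has its own scale. The other named sites of this kind, at 21ur-7478, 21ur-4908, 21ur-3646, 21ur-8213, 21ur-10575 and 21ur-7379, scored 26.2 to 36.5.

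Such sites, with a piRNA gene within 100 bp and no other gene start or protein-coding 3′ end within 500 bp, numbered 42 in the left and 160 in the right cluster. The IDR list held 0 of the 42 and 0 of the 160, against 4.47% of all 30000 pooled sites. The choice of these sites leaves out gene ends, where IDR peaks were more frequent. At protein-coding starts or 3′ ends the IDR list held 9.64% of cluster sites. Without such ends within 500 bp it held 1.66% of sites within 500 bp of a piRNA gene (8 of 481). Farther away it held 2.31% (12 of 519). Their scores ran from 14.3 through a median of 19.2 to 34.3 in the left cluster and from 14.2 through a median of 18.8 to 39.4 in the right. A summit lay within 100 bp in both replicate lists for 3 of the 42 and for 20 of the 160.

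The clusters together held fewer sites per Mb than the rest of the chromosome taken as a whole. The pooled list had 263 sites per Mb in the clusters (251 to 276) and 344 in the rest of chromosome IV (333 to 355). Replicate 1 had 201 per Mb in the clusters against 267, and replicate 2 had 267 against 338, so the order was the same in each list. The right cluster, the richer in piRNA genes with 3078 per Mb, had 236 sites per Mb (221 to 253). The left cluster, with 1126 piRNA genes per Mb, had 303 (282 to 326), and the interval of the left flank of the chromosome, 318 to 352, overlapped with it. The region between the clusters had 358 sites per Mb (343 to 372). The short right flank, with 57 sites in 0.294 Mb, had 194 per Mb (147 to 251), below both clusters. Its interval overlapped with that of the right cluster. In the replicate lists the right flank had 197 and 248 per Mb, above the 181 and 239 of the right cluster. Protein-coding genes were also sparser in the clusters, with 152 per Mb against 207 in the rest, and the bases held less G and C, 33.0% against 35.5%.

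Within the clusters, sites were sparse near piRNA genes. A summit counted as near when a piRNA gene lay within 500 bp. Of the cluster summits 40.5% were near (38.1% to 43.0%), while 62.2% of all cluster bases were. The list of replicate 1 gave 40.9% and that of replicate 2 gave 40.8%. In the left cluster 27.3% of summits and 47.8% of bases were near, and in the right cluster 52.0% of summits and 71.9% of bases. The summits lay a median of 1194 bp from the nearest piRNA gene, against a median of 239 bp for the bases.

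As densities, this was 172 sites per Mb near piRNA genes and 414 per Mb farther away, a ratio of 0.415. The ratio was 0.421 in replicate 1 and 0.420 in replicate 2, and 0.410 and 0.424 in the left and right clusters in the pooled list. Over both clusters together, density rose with distance: 134 sites per Mb within 50 bp (114 to 156), 183 at 100 to 200 bp (156 to 213), 233 at 500 to 1000 bp (194 to 278) and 562 at 5000 bp or more (513 to 614). The last value is above the 344 of the rest of the chromosome, so the parts of the clusters farthest from piRNA genes were dense in sites. Some of these parts lie at the edges of the bounds and not among piRNA genes. The stretch chrIV:4500001-4750000, at the edge of the left cluster, had 2 piRNA genes and 94 sites. The right cluster spanned the wider range, from 142 per Mb within 50 bp to 692 at 5000 bp or more. Within each cluster the rise was uneven. The left cluster had 198 per Mb at 50 to 100 bp and 126 at 100 to 200 bp. It had 527 at 2000 to 5000 bp and 485 beyond. The right cluster had 209 at 100 to 200 bp and 217 at 1000 to 2000 bp. Replicate 1 alone went from 105 to 440 per Mb over both clusters and replicate 2 from 146 to 553.

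**Figure D1:**
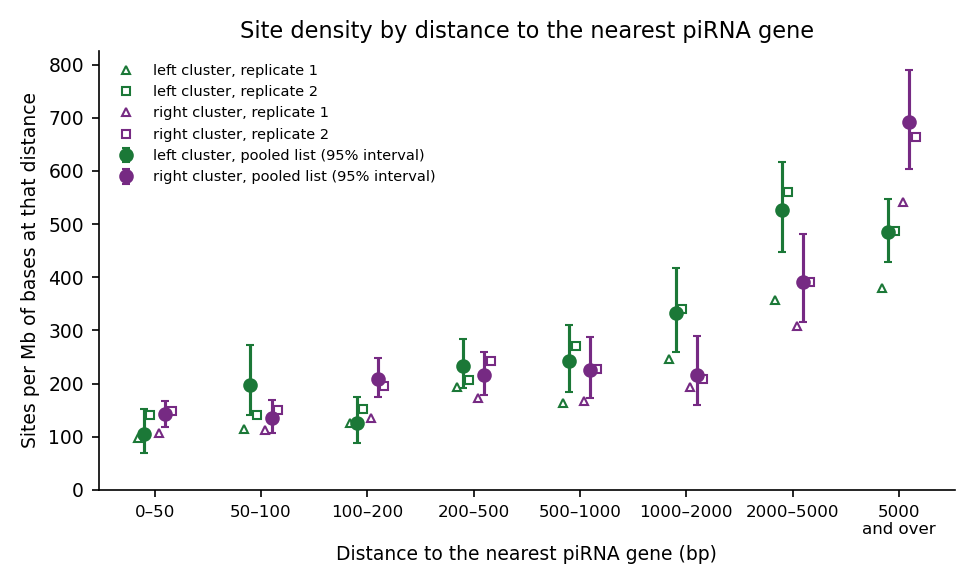
Sites per Mb of bases (vertical axis) in 8 classes of distance to the nearest piRNA gene in bp (horizontal axis), for the left and right cluster. Filled points with bars are the pooled list with exact 95% intervals, open triangles replicate 1 and open squares replicate 2. In each list the density at 5000 bp or more was above that within 50 bp.

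The IDR peaks followed the same order, with 3.89 per Mb near piRNA genes (15 peaks) and 28.1 per Mb farther away (66 peaks). As a difference the gap was widest at protein-coding starts or 3′ ends, with 8.80 per Mb near and 73.9 away, but not as a ratio. Within masked repeats, for example, the densities were 1.20 (2 peaks) and 21.3 (19 peaks). Without protein-coding ends within 500 bp they were 2.62 (8 peaks) and 7.43 (12 peaks). There the left cluster had 4.42 near and 4.74 away, and the right cluster 1.86 and 10.4. In the rest of chromosome IV, where 3.41% of bases are near a piRNA gene, the density ratio was 0.565 in the pooled list, 0.683 in replicate 1 and 0.622 in replicate 2. This rested on 76 near summits, and the flanks and the middle were not alike. Summits over bases near piRNA genes gave 0.556 in the middle and 0.690 in the right flank, but 1.04 in the left flank, which had 10 near summits.

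Bases near piRNA genes differ from others in composition. They had a GC content of 30.8%, against 36.5% for bases farther away in the clusters. Of 3.85 Mb near piRNA genes 2.08 Mb lie between other genes, and of 2.35 Mb farther away 0.771 Mb do. The ratio of near to far density was therefore also taken within groups of bases alike in 1 trait at a time. These groups are overlapping splits of the same bases. Only the GC groups are matched in GC content. Inside genes, for example, it was still 32.3% near piRNA genes and 37.5% away. It was 0.368 for bases at a protein-coding start or 3′ end and 0.489 for all others. It was 0.404 inside genes and 0.537 between them, and 0.399 outside masked repeats and 0.460 within them. Grouped by the GC content around each base from poorest to richest, the ratios were 0.658, 0.385, 0.442 and 0.615. Away from piRNA genes the density in these GC groups was 223, 335, 429 and 477 sites per Mb, and near them it was 147, 129, 189 and 293. Over these 10 groups the ratio ran from 0.368 to 0.658 in the pooled list, from 0.335 to 0.702 in replicate 1 and from 0.370 to 0.676 in replicate 2. Near piRNA genes the density was lower in each group and each list. How uniquely reads can be placed at piRNA genes was not tested.

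**Figure D2:**
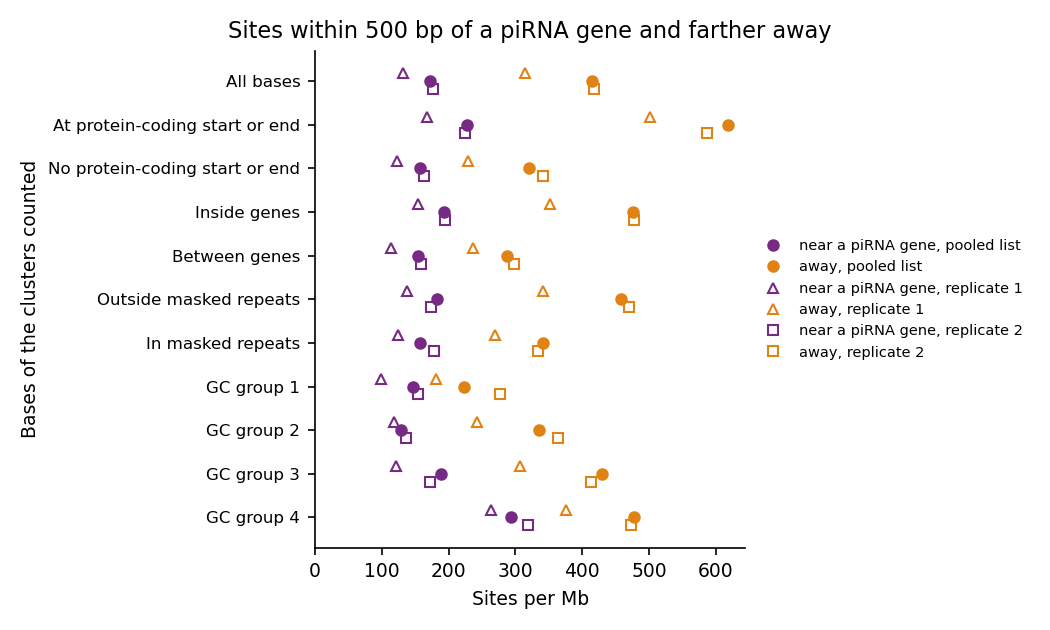
Sites per Mb (horizontal axis) within 500 bp of a piRNA gene (purple) and farther away (orange), for all bases of the clusters and for 10 overlapping groups of bases alike in 1 trait (vertical axis). GC group 1 is the poorest in G and C. Filled circles are the pooled list, open triangles replicate 1 and open squares replicate 2, and the purple points lie left of the orange ones of the same list in each row.

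Summits lay on both sides of the piRNA genes. Of 661 pooled summits within 500 bp of the nearest piRNA gene's 5′ end, 47.8% lay upstream of it (43.9% to 51.7%). Upstream bases make up 49.9% of such bases in the left cluster, where 47.1% of the summits were upstream, and the right cluster had 48.1% of its summits there. In the replicate lists 48.1% and 49.4% of such summits were upstream. The motif core CTGTTTCA, searched on both strands as TGAAACAG too, occurs 4938 times in the clusters, or 796 times per Mb, and 81.8 times per Mb in the rest of the chromosome. It was found within 150 bp of 11.8% of cluster summits (10.2% to 13.4%), against 21.0% of cluster positions. The replicate lists gave 12.5% and 12.1%. In the rest of the chromosome the values were 1.85% of summits and 2.31% of positions. The motif marks piRNA genes, so this value and the distance to them describe much the same bases.

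**Figure D3:**
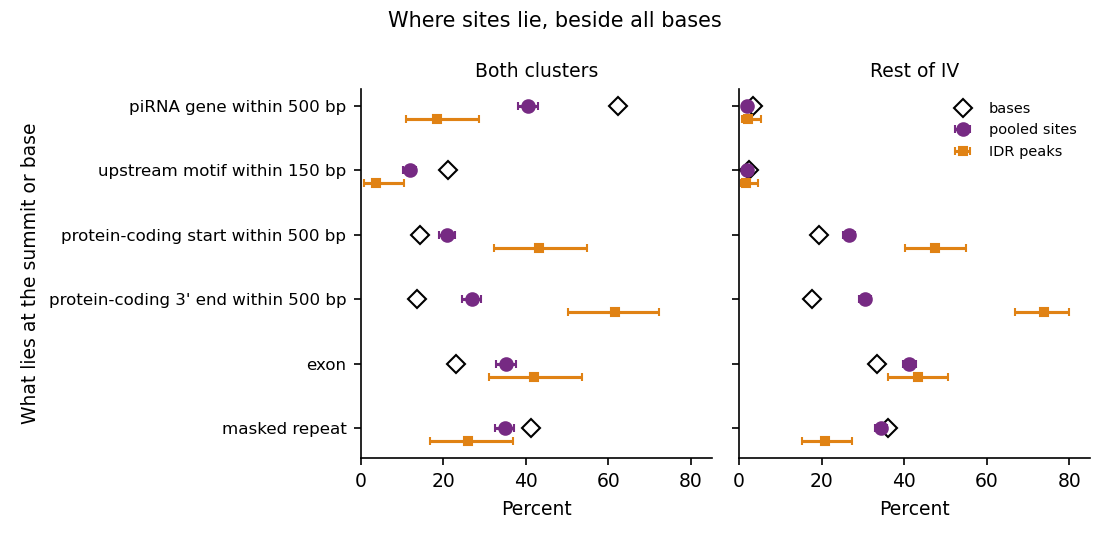
Percent of bases (open diamonds), pooled sites (purple circles) and IDR peaks (orange squares) that have each feature (vertical axis), in the clusters and in the rest of chromosome IV, with exact 95% intervals. In the clusters, sites lie left of the bases for piRNA genes and their motif, and right of them for protein-coding starts, 3′ ends and exons.

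Starts and 3′ ends of protein-coding genes stood on the other side of the bases. In the clusters 20.8% of summits lay within 500 bp of a protein-coding start (18.8% to 22.8%), and 14.4% of bases did. For 3′ ends the share was 26.8% (24.6% to 29.0%) of summits and 13.6% of bases. The clusters differed here, with 33.1% of summits at 3′ ends in the left (29.8% to 36.6%) and 21.3% in the right (18.6% to 24.1%). In the rest of the chromosome, which has more genes, 26.6% of summits and 19.4% of bases lay at starts, and 30.5% of summits and 17.6% of bases at 3′ ends. The gap in starts varied between the replicates, from 22.4% in the clusters against 25.8% in the rest in replicate 1 to 19.7% against 26.5% in replicate 2. For 3′ ends replicate 1 gave 27.3% against 31.7% and replicate 2 gave 24.9% against 30.7%. The left cluster's 33.1% was above the 30.5% of the rest, with overlapping intervals, and the right cluster was below it. Summits over bases gave 1.44 for starts and 1.96 for 3′ ends in the clusters, against 1.37 and 1.73 in the rest. The difference in shares between clusters and rest therefore stands beside a like difference in the bases. Exons held 35.2% of cluster summits and 23.1% of cluster bases.

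Read gene by gene, protein-coding genes of the clusters divided by whether a piRNA gene lay within 500 bp of the end in question. This recounts by gene the near and far densities at protein-coding ends given above. Of the 941 protein-coding genes, 29.8% had a pooled site at the start (26.8% to 32.8%), against 31.9% of all nuclear protein-coding genes and 36.7% of those in the rest of chromosome IV. At the 3′ end the share was 39.5% (36.4% to 42.7%), against 39.7% and 45.6%; it was 45.2% in the left cluster and 33.6% in the right. Where the start itself lay within 500 bp of a piRNA gene, 15.8% of 463 genes had a site there (12.6% to 19.4%), and where it did not, 43.3% of 478 genes did (38.8% to 47.9%). For 3′ ends the shares were 22.6% of 465 genes (18.9% to 26.7%) near a piRNA gene and 56.1% of 476 (51.5% to 60.6%) away from one. Replicate 1 gave 11.9% and 35.6% for starts, replicate 2 gave 16.4% and 42.9%, and both clusters showed the same order. The shares of protein-coding genes at large, 31.9% and 39.7%, lie between those of genes near piRNA genes and those away from them. The genes' expression was not measured here.

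**Figure D4:**
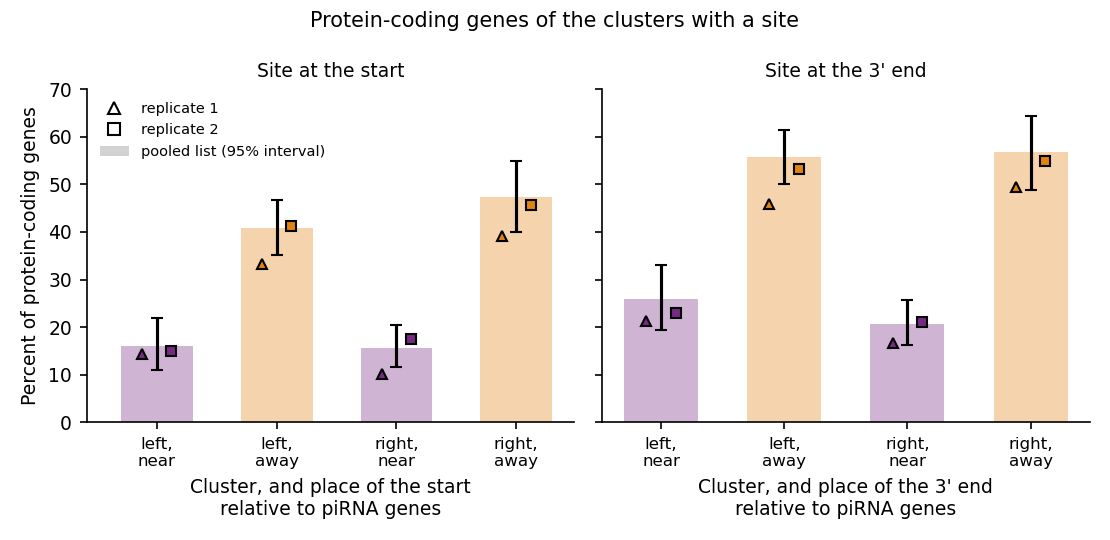
Percent of protein-coding genes of the left and right cluster (vertical axis) with a site within 500 bp of the start (left panel) or of the 3′ end (right panel), for ends within 500 bp of a piRNA gene (purple) and farther away (orange). Bars are the pooled list with exact 95% intervals, triangles replicate 1 and squares replicate 2; the orange bars are above the purple ones in each cluster.

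For IDR peaks the same split was steeper. Of all nuclear protein-coding genes 2.91% had an IDR peak at the start and 5.36% at the 3′ end, and of the cluster genes 3.83% and 6.38% did. Among cluster genes with a piRNA gene near the start, 2 of 463 had an IDR peak there (0.432%, with an upper bound of 1.55%), against 34 of 478 (7.11%) of the others. At 3′ ends the counts were 6 of 465 (1.29%) and 54 of 476 (11.3%).

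Scores differed more within the clusters than between the clusters and the rest of the chromosome. The median score was 22.3 in the clusters and 23.5 in the rest of chromosome IV. Near piRNA genes it was 19.8, with quartiles of 16.5 and 24.1, and farther away 25.5, with quartiles of 19.4 and 36.8. In the list of replicate 1 the medians were 9.20 near and 11.3 away, and in that of replicate 2 they were 15.6 and 19.9. The IDR list held 81 of the 1633 cluster sites, or 4.96% (3.96% to 6.13%), against 4.81% of the rest of the chromosome and 4.47% of all pooled sites. It held 2.27% of the sites near piRNA genes (1.27% to 3.71%) and 6.80% of those away (5.30% to 8.57%). Part of this went with protein-coding ends: at such ends the IDR share was 3.87% near and 11.9% away, and without them it was 1.66% (8 of 481) and 2.31% (12 of 519), with overlapping intervals of 0.721% to 3.25% and 1.20% to 4.00%. Without such ends the clusters went opposite ways on few peaks, with 2.90% near (4 of 138) and 1.46% away (4 of 274) in the left and 1.17% (4 of 343) and 3.27% (8 of 245) in the right.

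Repeat detection in the replicate lists went the same way. A pooled site counted as found in a replicate when that list had a summit within 100 bp. Of the cluster sites 21.1% were found in both lists (19.1% to 23.1%), against 23.3% in the rest of chromosome IV (21.9% to 24.6%) and 22.7% of all sites. Near piRNA genes the share was 13.0% (10.5% to 15.8%), and away from them 26.6% (23.8% to 29.5%). Among sites near piRNA genes 22.7% were found in neither list, and among those away 12.6%. The replicate lists also hold fewer sites per Mb near piRNA genes, so fewer summits there can fall within 100 bp. These shares are therefore not separate from the densities above. Of the 81 IDR peaks in the clusters 72 were found in both lists and 0 in neither. IDR picks sites that replicates rank alike, so this count follows in part from how the peaks were chosen. Replicate 1 found 34.8% of the cluster sites and replicate 2 found 69.6%, so most single finds were from replicate 2, the longer list.

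The 10 strongest sites of the left cluster all lay at the ends of genes. The strongest, with its summit at chrIV:4750064, lay between genes, 286 bp from the start of rpl-20, which encodes a protein of the large ribosomal subunit, and 176 bp from that of Y17G9B.5. It scored 306 in the pooled list, 73.0 in replicate 1 and 235 in replicate 2, and its nearest piRNA gene was 17640 bp away. The next, at chrIV:4748960, scored 224 and lay 163 bp from the 3′ end of rpl-20 and 52 bp from the start of cyc-2.1, a cytochrome c gene. Both flanks of the ribosomal protein gene thus carried the leading sites of this cluster.

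Further sites of the left cluster stood beside several protein-coding genes. The site at chrIV:6323845 scored 167 and lay 329 bp from the start of sqd-1, an RNA-binding protein gene. That at chrIV:5541481 scored 165, lying 146 bp from the start of tebp-2, whose protein binds telomeres, and 116 bp from the 3′ end of drp-1, which acts in mitochondrial division. The site at chrIV:6421198 scored 155 and lay in an exon of the pseudogene Y73B6BL.45, 2 bp from its start, 387 bp from the start of puf-11, a PUF family RNA-binding protein gene, and 300 bp from the 3′ end of htp-2, which encodes a protein of the meiotic chromosome axis. The site at chrIV:5473390 scored 135 and lay 216 bp from the 3′ end of rme-2, the yolk receptor of oocytes. It had no summit within 100 bp in replicate 2, whose nearest was 107 bp away. The other sites lay 46 bp from the start of the tRNA gene B0350.t1 (score 144), 37 bp from that of the snoRNA gene M03D4.78 (131), 255 bp from the 3′ end of oops-1 (122) and 163 bp from the 3′ end of C01G5.5 (139). Of these 10, the tRNA site alone had a piRNA gene within 500 bp, 97 bp from its summit.

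In the right cluster 3 of the 4 strongest sites lay in introns, away from any annotated gene end. The strongest, at chrIV:16415271 in Y65A5A.2, scored 206, with 60.7 in replicate 1 and 147 in replicate 2. The site at chrIV:16503785 in zip-7, a bZIP transcription factor gene, scored 152, with 52.6 and 95.5, and that at chrIV:15526689 in ari-1.4 scored 145, with 34.7 and 104. No gene start or protein-coding 3′ end lay within 500 bp of the 3, and their nearest piRNA genes were 18047, 1941 and 4178 bp away. Their sequences are shown, for comparison with the piRNA genes above, as 50 bases on each side of the summit on the plus strand, with the summit base in capitals. These sites were picked for display after their values were seen.
Y65A5A.2: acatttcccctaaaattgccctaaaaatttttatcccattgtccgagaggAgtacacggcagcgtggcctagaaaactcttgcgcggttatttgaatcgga
zip-7: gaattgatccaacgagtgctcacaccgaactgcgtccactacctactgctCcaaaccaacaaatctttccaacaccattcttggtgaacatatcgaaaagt
ari-1.4: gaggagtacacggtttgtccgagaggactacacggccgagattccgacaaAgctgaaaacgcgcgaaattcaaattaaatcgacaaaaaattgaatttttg

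The 3 stretches, at chrIV:16415221-16415321, chrIV:16503735-16503835 and chrIV:15526639-15526739, have a GC content of 44.6%, 44.6% and 42.6%, above that of the 6 piRNA stretches. Those 6 are shorter and are placed on a gene and not on a summit, so the 2 kinds of stretch are unlike. Masked repeats cover 63 of the 101 bases at Y65A5A.2, 57 at ari-1.4 and 0 at zip-7. Reads of repeated sequence can be shared between copies, and the effect on these scores was not tested.

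Of the other 7 leading sites of the right cluster, 6 lay at a protein-coding start or 3′ end. Those at chrIV:13510162 and chrIV:13510366 scored 188 and 114 and lay 145 and 59 bp from the 3′ end of puf-3, which encodes a PUF family RNA-binding protein. That at chrIV:17089032 scored 116 and lay 86 bp from the 3′ end of snr-1, a gene of the spliceosomal Sm proteins, and 181 bp from the start of Y116A8C.43. The site at chrIV:15473852 scored 126, 192 bp from the start of Y73F8A.26. Sites at 28, 344 and 418 bp from a piRNA gene closed the list: one of score 109 lay 257 bp from the 3′ end of Y41E3.1, one of 110 in an intron of Y57G11C.22, and another of 109 lay 317 bp from the 3′ end of tsr-2. The site in Y57G11C.22 had only piRNA genes, 21ur-10291 and 21ur-5629, as gene starts within 500 bp.

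Of the 81 IDR peaks in the clusters, each assigned to 1 class in the order given, 11 lay at tRNA gene starts (13.6%, 6.98% to 23.0%), 4 at snoRNA and 2 at snRNA genes. Starts of protein-coding genes took a further 31, their 3′ ends 22, and 11 lay elsewhere. In the rest of chromosome IV the classes held 8, 17, 5, 79, 65 and 13 of 187 peaks. tRNA genes are transcribed by RNA polymerase III. In the clusters 33 of 41 tRNA genes had a pooled site at the start (80.5%) and 11 had an IDR peak, beside 23 and 8 of 30 in the rest of chromosome IV. tRNA genes are often near-identical copies, so reads at them may be shared.

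In the clusters the IDR list held 15 sites near a piRNA gene, and in the rest of chromosome IV it held 4. Of the 15, 14 also had the start of a gene of another kind or a protein-coding 3′ end within 500 bp, and the exception was the site in Y57G11C.22. At 4 of them a tRNA gene start lay within 100 bp: B0350.t1, Y43D4A.t1, C09B9.t1 and Y73B6BL.t1. The site at chrIV:5265203 (score 95.1) lay 86 bp from 21ur-7377 and 296 bp from sls-2.19, an annotated pseudogene. The closest of the 15 to a piRNA gene was the site at Y41E3.1, whose summit was 28 bp away.

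Gene by gene, 380 of the 2816 piRNA genes of the left cluster (12.3% to 14.8%) and 1668 of the 11388 of the right (14.6%, 14.0% to 15.3%) had a pooled summit within 500 bp of the 5′ end. Since neighbouring piRNA genes share summits, these genes are not independent and the intervals are too narrow. Replicate 1 gave 11.9% and 10.4%, and replicate 2 gave 14.1% and 15.2%. The same share was 15.7% for the 510 piRNA genes elsewhere on chromosome IV (12.6% to 19.1%). An IDR peak lay at 6 of the 2816 (0.213%) and at 17 of the 11388 (0.149%), against 4 of the 510 elsewhere on chromosome IV (0.784%, 0.214% to 2.00%) and 9 of the 649 on other chromosomes (1.39%, 0.636% to 2.62%).

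Within the clusters, windows of 250 kb with more piRNA genes tended to hold fewer sites, with exceptions. The window richest in piRNA genes, chrIV:16000001-16250000, had 1047 of them and 34 pooled sites, with 18 in replicate 1, 38 in replicate 2 and 0 IDR peaks, and was the poorest of the right cluster. The next in the right cluster had 1032 and 991 piRNA genes with 53 and 43 sites. An exception was chrIV:14750001-15000000, which had 835 piRNA genes and 95 sites, 8 of them IDR peaks, the most sites of any window of the right cluster. In the left cluster the 3 richest windows had 520, 458 and 420 piRNA genes and 57, 81 and 52 sites. The median window had 82.5 sites in the left cluster, 52.5 in the right and 95.5 in the region between them. That region also held the window with the fewest sites of the chromosome, chrIV:10500001-10750000, with 25 sites and 18 piRNA genes. Across the 24 windows of the clusters, Spearman's rho between sites and piRNA genes was -0.70 and Pearson's r -0.68, with rho of -0.61 and -0.68 in the replicates. Within the left cluster alone rho was -0.65 over 10 windows, with -0.35 in replicate 1 and -0.73 in replicate 2, and within the right cluster -0.69 over 14. In the 45 windows of the rest, rho was -0.04, with 0.20 in replicate 1 and 0.04 in replicate 2. The 24 cluster windows gave rho of 0.73 between sites and protein-coding genes and -0.83 between piRNA and protein-coding genes. These describe neighbouring windows of 1 chromosome, and piRNA and protein-coding genes cannot be told apart at that scale.

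**Figure D5:**
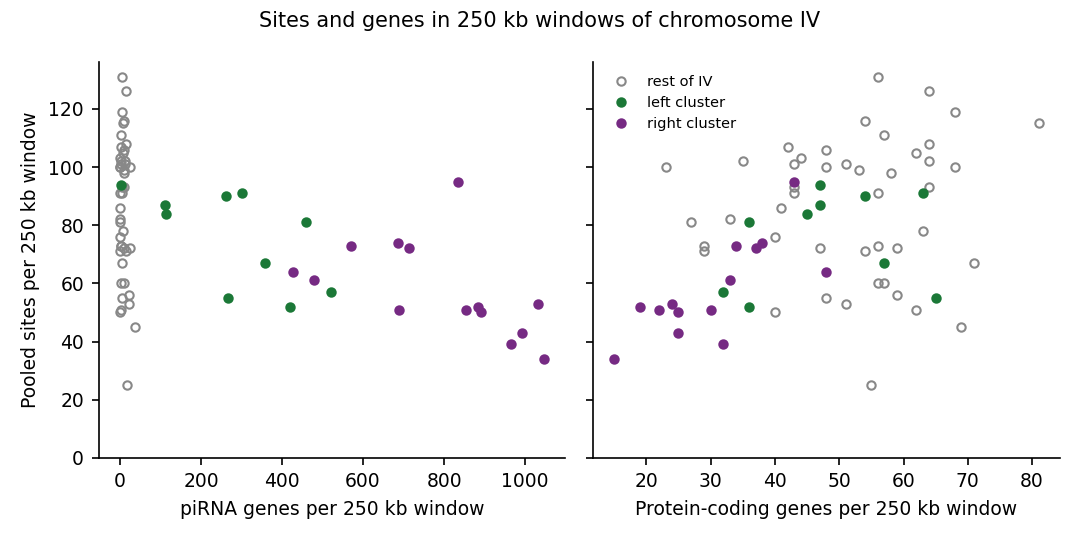
Pooled sites per 250 kb window of chromosome IV (vertical axes) against the number of piRNA genes (left panel) and of protein-coding genes (right panel) in the window, with windows of the left cluster in green, of the right cluster in purple and of the rest in grey. The window with 1047 piRNA genes has 34 sites; 1 window that straddles a bound is left out.

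Sites nearest to the bounds were not IDR peaks. Their scores ran from 14.3 to 24.8, beside a median of 23.0 for all pooled sites. Just inside and just outside the left cluster's lower bound the scores were 24.8 and 23.8, and at its upper bound 21.0 and 17.8. At the right cluster's upper bound they were 14.3 and 18.6, and at its lower bound the inner site scored 16.7 and the outer one slightly more. The nearest piRNA genes to the sites at the lower bound of the left cluster were 67730 and 49757 bp away, and to those at the upper bound of the right cluster 343 and 98 bp. The first bound thus runs through a stretch poor in piRNA genes and the last through one that is not.

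Of 34 genes listed for the making and the use of piRNAs, 33 were matched, 3 of them on chromosome IV and 1 in the clusters. That gene is prg-2, a paralogue of prg-1 that the annotation used here lists as a pseudogene, at chrIV:6526962-6529802 on the minus strand. A site at chrIV:6526687 lay 275 bp past its 3′ end and 163 bp from the 3′ end of C01G5.5, the protein-coding gene that faces it. It scored 139 in the pooled list, 54.1 in replicate 1 and 28.6 in replicate 2, and was an IDR peak. A weaker site, of score 29.3, lay 463 bp from the start of prg-2. Outside the clusters, csr-1, the Argonaute of the germline licensing pathway, had an IDR peak of score 173 at 51 bp from its 3′ end, and nrde-4, a nuclear RNA interference gene, had sites of score 22.0 at the start and 16.7 at the 3′ end. Of the 33 genes, 23 had a pooled site at the start and 30 at the 3′ end, against 31.9% and 39.7% of all nuclear protein-coding genes. An IDR peak lay at the start of 1 and at the 3′ end of 9, against 2.91% and 5.36% of all. The list was chosen by name. The one at a start was at hrde-1, the gene of the tagged protein itself. The 9 at 3′ ends also include hrde-1, and prg-2, which is not among the protein-coding genes of the comparison.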

How the data were processed

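ChIP-seq of tagged HRDE-1 gave candidate site lists for 2 replicates and for both pooled, and an IDR list. Per the deposited file descriptions, the lists derive from read alignments and a control alignment. The score in each list is the deposited value of the authors' caller; the sources used here do not give caller, aligner, versions, IDR threshold or depth, and the control was not analysed here. Build ce11 was taken as WBcel235 (chromosome IV has 17493829 bp). Genes came from Ensembl release 115, names from RefSeq for 2773 of its 2811 unnamed genes, and sequences and soft-masked repeats from the RefSeq genome of the same build. Positions count from 1.

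Near and at mean within 500 bp of an annotated end (for piRNA genes, of any base of the gene). Summits within 100 bp of each other count as the same site. Intervals are exact: Clopper-Pearson for shares, Poisson for densities. Python 3.11.15, numpy 2.4.6, pandas 2.3.3, scipy 1.17.1 and matplotlib 3.10.9 were used. The density calculation was tested on simulated sites. The labels do not say whether the biological replicates were grown apart.

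Members and gene lists were chosen with earlier results of these data known. Named sites were the 10 of highest score per cluster, up to 5 per cluster within 100 bp of a piRNA gene with no other gene start or protein-coding 3′ end within 500 bp, and those next to each bound. Sequences were those of up to 3 of the second kind per cluster, and windows the 3 with most piRNA genes. Alternatives left out each replicate, raised the score threshold, and changed bounds, distances and build.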

Additional observations from a re-analysis of the deposited data

How the results depend on the processing

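Differences are clusters minus rest of chromosome IV in percentage points unless named otherwise. None of 9 summary values turned over except the IDR share difference, 0.149 as reported. It was -0.234 with the 500 strongest IDR peaks alone, 0.197 with 1 summit per interval, 0.103 with ce10 lists and 0.540 for the right cluster against the left flank. In a single replicate's list the 1341 sites of highest score stood in for the IDR peaks. That unlike measure gave 0.268 without replicate 1 and 0.332 without replicate 2. The ratio of site density, 0.765, was 0.691 for the upper part of the list by score, 0.729 with bounds trimmed by 250 kb, and 0.753 to 0.792 with a replicate left out. Summits minus bases near piRNA genes, -21.63, was -37.04 for the upper part, -22.39 trimmed, -19.31 at 200 bp, -22.6 at 1000 bp, and -21.34 and -21.27 without replicates 1 and 2. The near over away ratio, added after seeing the data, 0.415, was 0.204 for the upper part, 0.395 trimmed, 0.430 at 200 bp, 0.384 at 1000 bp, and 0.420 and 0.421 without replicates 1 and 2. Starts, -5.791, gave -2.811 at 200 bp, -9.061 at 1000 bp, and -6.825 to -3.422 without a replicate. Ends, -3.70, gave -2.444 for the upper part, -5.403 trimmed, -6.389 at 1000 bp, -0.880 for the left cluster against the middle, and -5.835 to -4.319 without a replicate. The ratio of median score, 0.946, was 0.979 for the upper part and 0.943 to 0.971 without a replicate. The share found in both lists, -2.191, gave -1.486 for the upper part, -1.104 within 50 bp and -5.503 within 250 bp. With a replicate left out, the share counted the sites of 1 replicate found in the other's list. This gave -3.229 without replicate 1 and -2.758 without replicate 2. The motif difference to positions, -9.254, was -12.77 for the upper part, -9.575 trimmed, -3.537 within 60 bp, and -8.888 to -8.501 without a replicate. Causes were not tested. No paired analysis of groups was possible because there is 1 group; regions pair within a replicate, and their values in each list are those without the other replicate. Depth is unknown.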

Other observations

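The piRNA genes outside chromosome IV had sites more often on some chromosomes than on others. A pooled summit lay within 500 bp of the 5′ end of 31.6% of the 98 piRNA genes on chromosome I (22.6% to 41.8%), 23.9% of the 109 on II and 34.6% of the 78 on III (24.2% to 46.2%). The share was 10.9% of the 202 on V and 10.5% of the 162 on X (6.23% to 16.3%). Replicate 1 gave 25.5%, 22.9%, 23.1%, 14.4% and 11.7% in the same order, and replicate 2 gave 34.7%, 24.8%, 37.2%, 12.9% and 11.7%. The pooled list also held more sites on I (5992) and III (5895) than on V (4698) and X (2829).

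Among other genes of the clusters, a pooled site lay at the start of 11 of 18 snoRNA genes, 9 of 16 snRNA genes, 5 of 19 miRNA genes and 31 of 175 pseudogenes (17.7%, 12.4% to 24.2%). In the rest of chromosome IV the counts were 26 of 41, 18 of 25, 13 of 31 and 45 of 206 (21.8%).

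The summit sequences of the intronic sites of Y65A5A.2 and ari-1.4 share a run of 13 bases, TTGTCCGAGAGGA, noticed after their values were seen. Their longest runs shared with the site in zip-7 are 5 and 6 bases. The run occurs 10 times in the clusters on either strand, and 5 of these copies lie within 150 bp of a pooled summit. They belong to 4 sites, 3 of them IDR peaks, with scores from 28.0 to 206 and a median of 156, and 7.62% of cluster bases lie within 150 bp of a summit. Elsewhere on chromosome IV 7 of 19 copies lie that close to a summit, at 7 sites of which 1 is an IDR peak, and 9.88% of bases do. The sites that gave the run are among those counted. Reads shared between copies were not tested.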
